A study of Mus musculus with 2 samples.

Results

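The genes described are 10 members of the mouse bone morphogenetic protein (BMP) and growth differentiation factor (GDF) group, taken by symbol: Bmp1, Bmp2, Bmp3, Bmp4, Bmp5, Bmp6, Bmp7, Gdf6, Gdf10 and Gdf11. They were read by 13 of the 39429 probes of the array, and all 10 were measured among 22316 genes or unnamed features. Ureters of wildtype NMRI mouse embryos of mixed sex at E13.75 (days after conception) were cultured on membranes for 18 h. The medium held NOGGIN at 10 µg/ml, or none in the control. Total RNA, 200 ng a sample, was compared on 2 arrays, each carrying 1 NOGGIN and 1 control sample in different dyes, and array 2 had the dyes of array 1 exchanged. The question is how transcript levels in the cultured ureter change under the BMP antagonist. The labels number the samples 1 and 2 and do not say how many ureters or litters each held. The p-values thus cover only the spread between these 2 arrays, moderated over all genes. That spread holds dye effects of single genes as well as differences between the samples.

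BMPs are secreted dimers that bind paired type I and type II serine/threonine kinase receptors, which phosphorylate SMAD proteins that then enter the nucleus and act on transcription. NOGGIN is a secreted antagonist that binds BMP2, BMP4 and several relatives and keeps them from their receptors. In the developing urinary tract, Bmp4 is expressed in the mesenchyme around the ureter and is needed for its smooth muscle coat. BMP2 and BMP4 are close relatives, as are BMP5, BMP6 and BMP7; BMP3 and GDF10 form another pair, GDF6 is closest to GDF5 and GDF7, and GDF11 is a relative of myostatin. BMP1 carries the name but is a secreted metalloprotease that trims procollagens and cleaves the BMP antagonist chordin.

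Each transcript was read by probes of 60 bases, each printed on 4 spots an array, and a gene's value came from its brightest probe above background. The last 30 bases of 6 of the probes follow, 5′ to 3′. The largest differences rest on them, apart from the unused Bmp4 probe, which gave no usable signal. Positions are those of the files, on mouse build mm9, and capitals mark the hexamer AATAAA, the usual polyadenylation signal, searched on the strand given.
Gdf6 (chr4:9789426-9789455, plus strand): aaacatttttacagtataccttcttggacg
Bmp2 (chr2:133388290-133388319, plus strand): ctaAATAAAatataatatttcttctttatt
Bmp3 (chr5:99308920-99308949, plus strand): tgacagtcgactcctgtgcttgtagataac
Bmp7 (chr2:172695203-172695232, minus strand): agaagccactgtaatgatatgtcacaataa
Bmp4, used (chr14:47003391-47003420, minus strand): tccctatagctggacttttatcttaaaaaa
Bmp4, not used (chr14:47003198-47003227, minus strand): gaaAATAAAatgagtcattattttaaagat

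The full probes of 3 of the 13 hold AATAAA, against 12.6% of all 39429 probes on the array. They belong to Bmp2, to the unused Bmp4 probe and to the Bmp1 probe at transcript position 3691. The unused Bmp4 probe is 85.0% A and T, against 61.7% for the Bmp4 probe that was used and a median of 58.3% over all probes. Only 0.0609% of probes have as high a share. The annotation of exons and untranslated regions on mm9 was not used here.

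The sources leave the direction of the ratio unsettled. Every log2 ratio below, unless given as red over green, follows the dyes in the labels. The channel labelled NOGGIN is on top and that labelled control underneath. Read that way Id1, a transcription regulator that BMP signalling is known to induce, was higher in the channel labelled NOGGIN, at 2.21 on array 1 and 2.08 on array 2. The titles set NOGGIN against control, and the authors' deposited table gives Id1 signed fold changes of -4.65 and -4.53, the opposite direction if it is read in the order of the titles. If the dye labels were exchanged, every log2 ratio of NOGGIN over control below would turn its sign and keep its size. Fold changes quoted from the authors' deposited table are linear and keep the sign they have there.

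On each of the 2 arrays, 5 of the 10 ligand genes were at least 1.5-fold lower in the channel labelled NOGGIN: Gdf6, Bmp2, Bmp3, Bmp7 and Bmp4. None was higher by that rule, and Bmp1, Bmp5, Bmp6, Gdf10 and Gdf11 were neither. Over all genes tested, 1.25% were lower and 0.941% were higher by the same rule, or 2.19% in either direction. The 10 genes were picked with earlier results of these data known. Setting them against all genes, here and below, therefore cannot test the ligand family as a whole. Outside the 10, a further 11 BMP and GDF ligands were measured. Only Gdf5 of those was past 1.5-fold on both arrays, at a mean log2 ratio of 1.09, the side opposite to the 5 genes. Counted by probe, 5 of the 12 kept ligand probes were lower and 0 higher, against 1.07% and 0.85% of all kept probes. The median log2 ratio of the 10 was -0.58, with -0.53 on array 1 and -0.73 on array 2, against -0.006 for all genes. With limma's moderated test, adjusted over all features, no gene reached 0.05 (0% of genes), so no member did. At an unadjusted p under 0.05, 5 members passed, the same 5 genes and all lower, against 3.36% of all genes on the lower and 2.68% on the higher side. A sign permutation over 2 arrays cannot give an exact two-sided p below 0.5. These are whole ureters, so fewer cells of a type and less RNA per cell cannot be told apart.

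**Figure D1:**
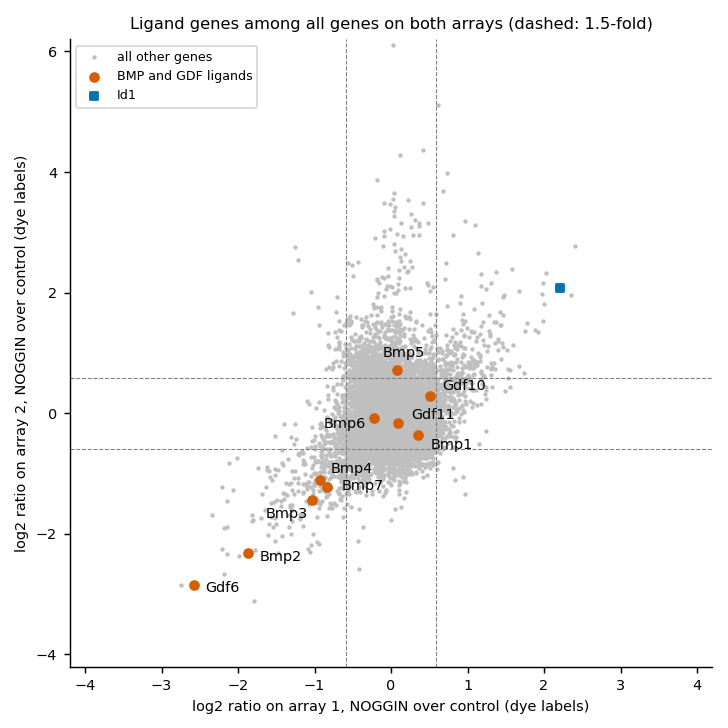
Log2 ratio of each gene on array 1 (horizontal) and array 2 (vertical), NOGGIN over control by the dye labels; 1 point is 1 gene, orange points are the 10 ligand genes, the blue square is Id1 and dashed lines mark 1.5-fold. Gdf6, Bmp2, Bmp3, Bmp4 and Bmp7 lie in the lower left corner past both dashed lines, and Id1 lies in the upper right.

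Gdf6 had the largest difference of the group. It encodes a ligand known from joint, skull and eye development. Its normalized intensity, in arbitrary units that compare samples for 1 probe but not different probes, was 242.5 on array 1 and 197 on array 2 in the channels labelled NOGGIN, against 1445 on array 1 and 1411 on array 2 in the channels labelled control. Both NOGGIN values lay far below both control values. The log2 ratio was -2.57 on array 1 and -2.84 on array 2, a mean of -2.71 ± 0.19 (SD, n = 2) or 6.54-fold (adjusted p = 0.0735 in limma's test). That was the second lowest mean ratio (rank 2) of 22316. All 4 spots were well above background in both channels of both arrays, and single spots ran from -3.01 to -2.17 on array 1 and from -3.15 to -2.61 on array 2. The authors' deposited table gives this probe signed fold changes of 7.87 and 11.7.

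Bmp2, which has a role in heart, bone and many other organs, came next. Its intensity was 1183 and 822 in the channels labelled NOGGIN on arrays 1 and 2, against 4309 and 4115 in the channels labelled control. The groups did not overlap. The log2 ratio was -1.86 on array 1 and -2.32 on array 2, a mean of -2.09 ± 0.33 (SD, n = 2) or 4.27-fold (adjusted p = 0.0773 in limma's test), at rank 8 from the lowest. The ranges of Gdf6 and Bmp2 over the 2 arrays did not overlap each other. The authors' deposited table gives Bmp2 3.93 and 4.90.

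Bmp4, the ligand of the ureteric mesenchyme, differed by a smaller factor. Its used probe read 55911 and 49446 in the channels labelled NOGGIN, against 106810 and 106190 in the channels labelled control. Both NOGGIN values were below both control values. The log2 ratio was -0.93 on array 1 and -1.10 on array 2, a mean of -1.02 ± 0.12 (SD, n = 2) or 2.03-fold (adjusted p = 0.163 in limma's test). The ranges of Bmp2 and Bmp4, close relatives, did not overlap over the arrays; the difference between them was not tested. The authors' deposited table gives this Bmp4 probe 1.92 and 2.22.

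The other Bmp4 probe, whose last bases are printed above with AATAAA in capitals, starts 193 bases nearer the transcript's end and gave no usable signal. It read 65.4 and 72.3 in the channels labelled NOGGIN, against 67.2 and 69.8 in the channels labelled control, and in no channel did any spot exceed background clearly (0 spots). It was left out of the fit, and its log2 ratio of 0.006 is not a measurement of Bmp4. The authors' deposited table gives it 1 on both arrays.

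Bmp3 is known in bone as a ligand that opposes other BMPs. It read 3580 and 3086 in the channels labelled NOGGIN, against 7299 and 8328 in the channels labelled control, with no overlap. The log2 ratio was -1.03 on array 1 and -1.43 on array 2, a mean of -1.23 ± 0.29 (SD, n = 2) or 2.35-fold (adjusted p = 0.14 in limma's test). Gdf10, its closest relative, lay on the other side of 0. Gdf10 read 9282 and 9346 in the channels labelled NOGGIN, against 6543 and 7644 in the channels labelled control, and its log2 ratio was 0.50 and 0.29, a mean of 0.40 ± 0.15 (SD, n = 2; adjusted p = 0.875). Gdf10 was under 1.5-fold on both arrays.

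Bmp7 is needed in the kidney to keep nephron progenitors alive. It read 1399 and 1364 in the channels labelled NOGGIN, against 2491 and 3168 in the channels labelled control. Again the groups did not overlap. The log2 ratio was -0.83 on array 1 and -1.22 on array 2, a mean of -1.02 ± 0.27 (SD, n = 2) or 2.03-fold (adjusted p = 0.19 in limma's test). Bmp3, Bmp7 and Bmp4 were neighbours whose ranges over the arrays overlapped, so they have no order among themselves beyond the spread. In each of the 5 lower members the ratio on array 2 was the larger in size, which also held for 184 (66.2%) of all 278 genes lower by the 1.5-fold rule.

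**Figure D2:**
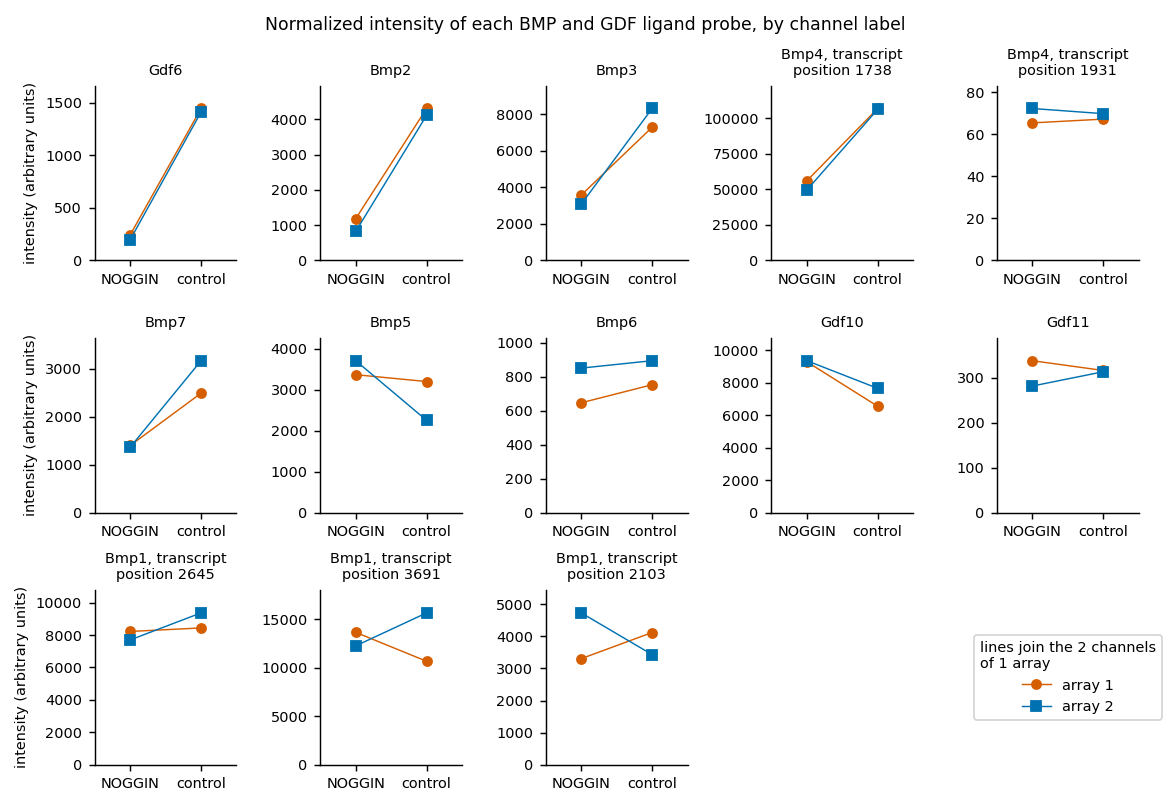
Normalized intensity (vertical axis, arbitrary units, starting at 0) of each of the 13 ligand probes in the channel labelled NOGGIN (left) and the channel labelled control (right), with a line joining the channels of 1 array. For Gdf6, Bmp2, Bmp3, Bmp7 and the used Bmp4 probe both lines run upward to control, and for the unused Bmp4 probe all 4 values stay between 65.4 and 72.3.

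Bmp5 and Bmp6, the relatives of Bmp7, were under 1.5-fold on at least 1 array. Bmp5, known from skeletal development, read 3370 and 3713 in the channels labelled NOGGIN, against 3203 and 2254 in the channels labelled control. The NOGGIN values lay above the control values, but the arrays differed in size, with log2 ratios of 0.07 on array 1 and 0.72 on array 2 (mean 0.40 ± 0.46, SD, n = 2; adjusted p = 1.00 in limma's test). Array 2 alone puts Bmp5 past 1.5-fold and array 1 does not. Bmp6, which controls iron uptake through hepcidin in the liver, read 646 and 850 in the channels labelled NOGGIN, against 752 and 893 in the channels labelled control. Its groups overlapped, and its log2 ratio was -0.22 and -0.07, a mean of -0.15 ± 0.10 (SD, n = 2).

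Gdf11, which patterns the body axis and is needed for ureteric bud outgrowth, read 338 and 282 in the channels labelled NOGGIN, against 316 and 313 in the channels labelled control. The groups overlapped. Its log2 ratio was 0.10 on array 1 and -0.15 on array 2, a mean of -0.03 ± 0.18 (SD, n = 2).

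In terms of intensity, 5 of the 10 genes had NOGGIN values below both control values and 2, Bmp5 and Gdf10, had them above. The same holds for 17.9% of all genes on the lower and 14.4% on the higher side. The mean log2 ratio exceeded the SD between arrays in size for Gdf6, Bmp2, Bmp3, Bmp4, Bmp7, Gdf10 and Bmp6, of which Gdf10 and Bmp6 were under 1.5-fold. It did not for Bmp1, Bmp5 and Gdf11.

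**Figure D3:**
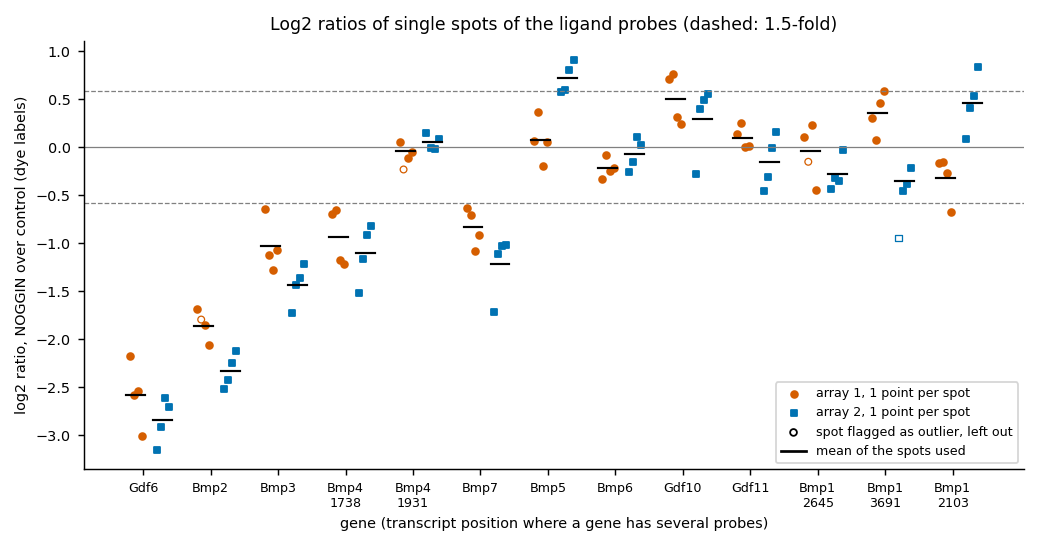
Log2 ratio of every single spot (1 point each, vertical axis, NOGGIN over control by the dye labels) for the 13 ligand probes, array 1 in orange circles and array 2 in blue squares, with open symbols for spots flagged as outliers and left out, bars for the means of the spots used and dashed lines at 1.5-fold. All spots of Gdf6, Bmp2, Bmp3, Bmp7 and the used Bmp4 probe lie below the lower dashed line on both arrays. The means of the Bmp1 probes at positions 3691 and 2103 have opposite signs on the 2 arrays.

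Bmp1, the metalloprotease, was read by 3 probes on chromosome 14 that were all above background. The probe at transcript position 3691 gave log2 ratios of 0.36 on array 1 and -0.35 on array 2, and the probe at position 2103 gave -0.32 and 0.46. Each of these values followed the dye: as red over green the first was -0.36 and -0.35 and the second 0.32 and 0.46. The third probe matches a non-coding variant of Bmp1 at position 2645 and had -0.04 and -0.28. The gene's mean, from the brightest probe, was 0.001 ± 0.50 (SD, n = 2), and averaging over both dye orientations left no difference between the labelled groups that exceeded its spread.

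**Figure D4:**
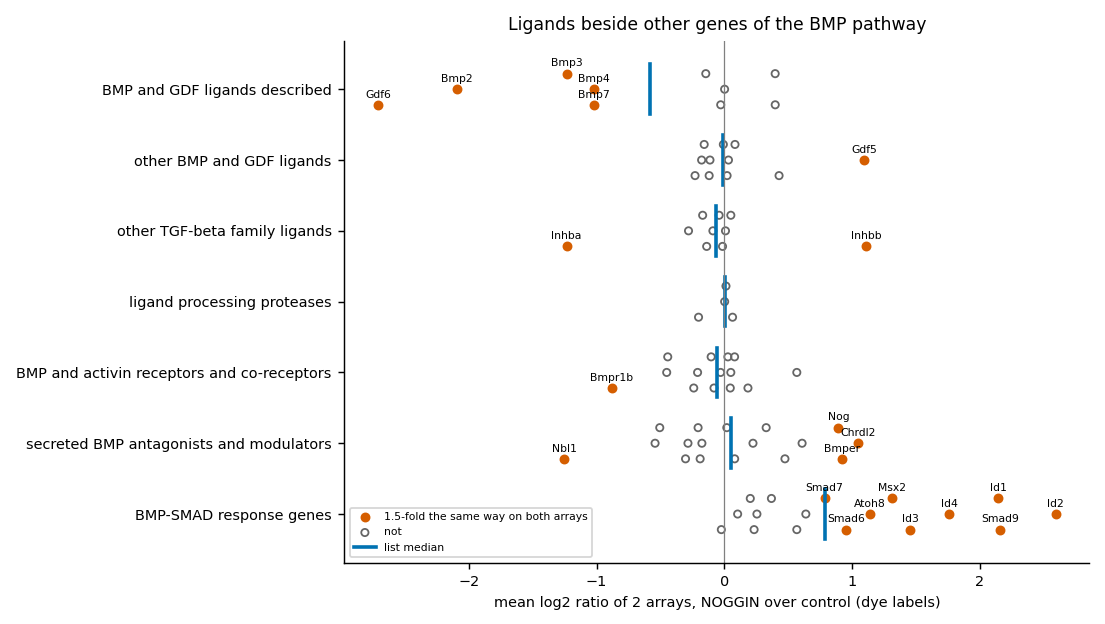
Mean log2 ratio over 2 arrays (horizontal axis, NOGGIN over control by the dye labels) of the 10 ligands and of other BMP pathway lists, 1 point per gene shown, filled and named where past 1.5-fold with 1 sign on each array, with a blue bar at the median of all measured genes of a list. The ligands' filled points lie between -2.71 and -1.02, and the filled points of the BMP-SMAD response genes lie on the other side of 0.

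Among the remaining BMP and GDF ligands, Gdf5 alone passed the 1.5-fold rule. Of 12 on the array, 11 were measured, and by the 1.5-fold rule 1 was higher, 0 were lower and 10 were neither, with a median of -0.009. Gdf5 is the close relative of Gdf6 known for joint formation. Gdf5 had 1.34 on array 1 and 0.84 on array 2, a mean of 1.09 ± 0.36 (SD, n = 2; adjusted p = 0.194 in limma's test). Gdf7, the third of that subfamily, had 0.43 ± 0.19 and was under the rule. The 3 relatives thus lay on different sides of 0, with Gdf6 at -2.71.

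Among ligands of the wider TGF-beta family, 10 of 12 were measured, with 1 higher, 1 lower and 8 neither. These were both inhibin beta genes, which encode subunits of activins: Inhbb had 1.11 ± 0.23 (SD, n = 2) and Inhba had -1.24 ± 0.12. The 4 proprotein convertases that can cut ligand precursors, Furin, Pcsk5, Pcsk6 and Pcsk7, were all neither and ran from -0.20 to 0.06.

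Among the 14 receptors and co-receptors measured, the 1.5-fold rule gave 0 higher and 1 lower, with a median of -0.06. The lower one was Bmpr1b, a type I receptor for BMPs and GDF5, with -0.88 ± 0.23 (SD, n = 2). That value came from the brighter of its 2 kept probes. With the mean over both probes, Bmpr1b was no longer lower by the rule. The type I receptor Bmpr1a (-0.03) and the type II receptor Bmpr2 (0.08) had means near 0.

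Secreted antagonists and modulators, which bind the ligands outside the cell or alter their release, had members on both sides. Among the 18 measured there were 4 higher, 1 lower and 13 neither, with a median of 0.05. The chordin relative Chrdl2 had 1.05 ± 0.39 (SD, n = 2) and Nog, the gene of noggin, had 0.89 ± 0.10. Nbl1, an antagonist of the DAN family, had -1.25 ± 0.05. NOGGIN was added as protein, so the Nog transcript does not check the labels.

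The BMP-SMAD response genes past the 1.5-fold rule were all on the side opposite to the 5 ligands. Among the 17 measured there were 9 higher, 0 lower and 8 neither, with a median of 0.78. Id2, an inhibitor of basic helix-loop-helix factors, had 2.59 ± 0.26 (SD, n = 2), the receptor SMAD Smad9 had 2.16 ± 0.28 and Id1 had 2.14 ± 0.09. On each array the 5 ligands and these 3 genes had opposite signs, which holds whichever way the dye labels are read. By limma's test 0 genes of any of these lists passed an adjusted p of 0.05. At an unadjusted p under 0.05 there were 11 response genes, 9 antagonists, 3 receptors, 2 other BMP and GDF ligands, 2 TGF-beta family ligands and 0 convertases. A gene that is in both the response and the receptor list is counted in each. The background was 6.04% of all genes.

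Marker genes of the labelled tissue were present: all 15 of the urothelial list and all 12 of the ureteric mesenchyme and smooth muscle list were above background. The summed intensity of the mesenchyme list was 227700 and 279800 in the channels labelled NOGGIN, against 369900 and 328800 in the channels labelled control, with 3 genes higher, 3 lower and 6 neither. The 7 fibroblast and stroma genes summed to 562300 and 598100 in the channels labelled NOGGIN, against 810300 and 781100 in the channels labelled control, with 0 past 1.5-fold and a median of -0.43. Both sums, in which bright probes weigh most, were lower in the channels labelled NOGGIN, as were Bmp4 and the other lower ligands. Single genes of the mesenchyme list ran from -0.98 to 1.21, with a median of -0.41. The part of both lists in the ligand ratios was not tested.

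Nephron and renal progenitor genes, 8 of 8 measured with 2 lower, summed to 14900 and 14630 in the channels labelled NOGGIN, against 20820 and 20400 in the channels labelled control. Skeletal muscle genes, 5 of 6 measured with 2 lower and Myod1 not above background, summed to 1495 and 1676 in the channels labelled NOGGIN, against 2783 and 4868 in the channels labelled control. The part of these cell types in the ligand ratios was not tested either. The urothelial sums were 332300 and 298600 in the channels labelled NOGGIN, against 268600 and 304700 in the channels labelled control, and overlapped. Of the endothelial (7 of 7 measured), nerve and Schwann (6 of 6), macrophage (7 of 8, without Fcgr1) and red blood cell genes (4 of 5), none was past 1.5-fold. The endothelial sums were higher without overlap, at 55060 and 56150 in the channels labelled NOGGIN, against 44930 and 53670 in the channels labelled control. The nerve, macrophage and red blood cell sums overlapped. In that order they ran from 39040 to 40420, 11690 to 19160 and 258000 to 291500 in the channels labelled NOGGIN. In the channels labelled control they ran from 37610 to 39820, 12360 to 16450 and 250900 to 278900.

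Across all genes, which are not independent replicates, the arrays' log2 ratios correlated at a Pearson r of 0.179 and a Spearman rho of -0.069, and 53 genes passed 1.5-fold in opposite directions. The share of probes well above background differed by dye. In green it was 76.9% (NOGGIN, array 1) and 76.4% (control, array 2). In red it was 66.4% (NOGGIN, array 2) and 65.3% (control, array 1).

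**Figure D5:**
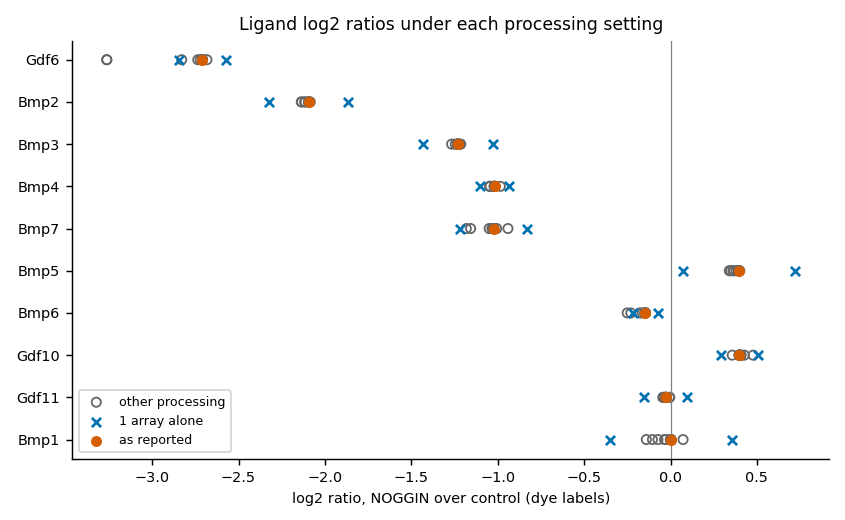
Log2 ratio of each ligand gene (horizontal axis, NOGGIN over control by the dye labels) as reported (orange), under other processing settings (open circles) and on 1 array alone (blue crosses). Gdf6, Bmp2, Bmp3, Bmp4 and Bmp7 stay below 0 in all settings run, and Bmp1 and Gdf11 lie on both sides of 0.

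The 5 lower ligands kept their direction in all settings run. Gdf6, Bmp2 and Bmp3 were at least 1.5-fold lower in all 14 settings tried that give such a call. Bmp4 was so in 13 of 14, failing at the 2-fold threshold, and Bmp7 in 12 of 14, failing there and with median centring. Over the settings, 1 array alone included, Gdf6 ran from -3.26 to -2.57, Bmp2 from -2.32 to -1.86, Bmp3 from -1.43 to -1.03, Bmp4 from -1.10 to -0.93 and Bmp7 from -1.22 to -0.83. The adjusted p moved across settings: with trend and robust variance Gdf6 (0.00473), Bmp2 (0.0103), Bmp3 (0.0433) and Bmp4 (0.0483) passed 0.05 in limma's test. Bmp7 passed in none, with 0.105 as its lowest adjusted p.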

How the data were processed

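Both 2-colour arrays were extracted with Agilent Feature Extraction 10.7.3.1, per the submitters' processing notes. By the labels, NOGGIN RNA carried AlexaFluor555 (green) on array 1 and AlexaFluor647 (red) on array 2. The deposited files hold spot intensity values, not normalized in the mean signal and background columns, and processed signals that the software background-subtracted and dye-normalized, per the file headers. A log10 ratio, also deposited, is red over green. In single spots it differed from the log10 ratio of the processed signals by up to 0.596. The authors' deposited table holds a score per probe, a signed linear fold change whose median is 1 on each array and which is never between -1 and 1. Against red over green its correlation was 0.717 (array 1) and -0.8 (array 2), and how it was normalized is not stated there.

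Mean signals were corrected by normexp (offset 50) and normalized by loess with weight 0 for control spots, in limma 3.58.1 under R 4.3.3. Outlier spots (3.48% and 3.37%) were left out, no spot was saturated, and each probe's 4 spots were averaged. Probes stayed in (29645) if the majority of unflagged spots passed the scanner software's background test in 1 channel or more on each array. Gene names were updated through RefSeq accessions (GRCm38.p6, names only; 28328 probes matched). Ratios were fitted with lmFit and eBayes on 1 coefficient, signed by the dye of the NOGGIN channel (+1 for red, -1 for green), with 1 residual degree of freedom, and p-values were adjusted by Benjamini-Hochberg over all features. Intensities by channel were taken after loess and Aquantile. The fit was run on simulated data without dye effects of single genes, so that run does not cover such effects. The number of arrays limits the precision. By the file headers the arrays shared 1 slide and 1 scan.

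The members, gene lists and alternatives were chosen with earlier results of these data known. Named genes are all members, Id1, Nog and, per pathway list, the 3 largest ratios past 1.5-fold; others (Gdf7, Bmpr1a, Bmpr2, the convertases) were chosen after their values were seen. Some genes are counted in their lists but not reported here by name or drawn.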

Additional observations from a re-analysis of the deposited data

How the results depend on the processing

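Alternatives covered background, normalization, filter, spots, probe choice, variance, thresholds, the authors' deposited values (turned to the dye-label direction) and each array alone. Genes lower by the 1.5-fold rule, 278 as reported, became 464 on processed signals, 91 at 2-fold, and 470 to 1258 on 1 array. Genes higher, 210, became 389, 58, and 491 to 1373. In limma's test 0 genes passed an adjusted p of 0.05, while 1347 had an unadjusted p under 0.05. That 0 became 141 under trend and robust variance, 114 under median centring, 97 where both channels had to exceed background, 35 without background correction, 23 when outlier spots stayed in, and 36 for a threshold of 0.1. Members lower, 5, became 3 at 2-fold (Gdf6, Bmp2 and Bmp3) and stayed at 5 on each array alone; members higher, 0, ran from 0 to 1 on 1 array (Bmp5 on array 2). Pathway genes lower, 3, became 2 with the mean over all kept probes, where Bmpr1b lost its call. They became 4 on processed signals and 4 on the authors' deposited values, and ran from 5 to 6 on 1 array.

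Bmp1, near 0, turned to -0.105 on processed signals, -0.035 with median centring, -0.073 with outlier spots kept, -0.00158 with spot medians, -0.029 over all kept probes and -0.14 on the authors' deposited values, with a single-array range of -0.353 to 0.355. That of Gdf11 was -0.154 to 0.096. Of 130 member values, 8 turned sign and 12 came to lie past the adjusted threshold. The other 110 kept their direction and, where a test was run, their side of that threshold. The 12 were 5 each of Gdf6 and Bmp2 and 1 each of Bmp3 and Bmp4. The causes were not tested. A single array gives no test.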
